A study of Mus musculus with 6 samples.

Results

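The set described here holds 34 genes of mitosis and of the G2 phase that precedes it, chosen by name and found by symbol among the Entrez gene IDs of the deposited count table. All 34 were in the table of 26332 genes, and all 34 were among the 13652 genes expressed highly enough to be tested. Thymic natural killer (NK) cells were profiled by RNA-seq, with 1 library for each C57BL/6 mouse: 4 wild-type mice (WT 1 to WT 4) and 2 mice with a knockout of Tcf7 (KO 1 and KO 2). The male mice, per the labels, gave WT 1, WT 3 and KO 1, the female mice WT 2, WT 4 and KO 2. Cells carrying NK1.1 and NKp46 were sorted, without those that stained for CD3, CD8 or TCRbeta or bound the CD1d tetramer. Neither the ages of the mice nor the kind of knockout allele is given in the labels used here, and nothing in them limits the knockout to NK cells. The comparison of KO with WT asks what the loss of TCF-1, the transcription factor that Tcf7 encodes, changes in thymic NK cells.

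When a cell divides, cyclins bind and activate the kinase CDK1, which starts mitosis. Motor proteins then build the spindle, kinetochores attach the chromosomes to it, a checkpoint holds the cell until every chromosome is attached, and the anaphase-promoting complex destroys cyclins and securin so that the chromosomes part and the cell cleaves. The genes of these proteins are transcribed mainly in G2 and M phase. Many of their promoters carry a cell cycle genes homology region (CHR) near the start site, to which MuvB complexes bind, and CCAAT boxes, which NF-Y binds. Their messenger RNA in bulk samples is widely read as a sign of dividing cells. A library of pooled cells cannot tell a larger share of dividing cells from more RNA per dividing cell.

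The promoters show what the members share in sequence. RefSeq windows of GRCm38.p6, the same build as the mm10 of the files, were found for 28 of the 34 genes, each covering 250 bases before and 50 after a start site. The letters TTTGAA, the CHR, were searched on both strands and stood in the windows of 22 of the 28 genes (78.6%), against 20.2% of all 27025 genes with a window. CCAAT, also on both strands, was found for 24 of the 28 (85.7%), against 41.1% of all. Both motifs stood in 1 window for 21 of the 28 (75%), against 7.97% of all, and in 1 member window a CHR and a CCAAT match overlapped, as in 0.143% of all windows. A CHR that began within 50 bases of the start was found for 21 of the 28 members (75%), against 5.72% of all genes. These shares describe letters only, and no binding was measured.

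The following stretches are shown because they belong to the 4 members with the highest level per length, averaged over all 6 libraries, among those with a CHR. Each runs 5′ to 3′ and ends at the last base before the start site, with CHR and CCAAT matches of either strand in capitals. In Racgap1 and Cenpa the CHR lay after the start site, with its first base 5 and 16 bases past it, and is therefore not in the stretch. Start sites are those of the promoter table and can lie inside the outermost ends of a gene, which are the gene coordinates (GRCm38.p6) given with the values.
Top2a (chr11:99024190-99024439, - strand): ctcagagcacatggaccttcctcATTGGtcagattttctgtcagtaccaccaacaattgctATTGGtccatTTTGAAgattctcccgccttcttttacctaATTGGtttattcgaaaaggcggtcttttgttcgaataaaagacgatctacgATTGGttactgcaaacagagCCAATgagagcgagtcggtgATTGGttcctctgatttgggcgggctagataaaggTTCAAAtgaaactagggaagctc
Racgap1 (chr15:99651657-99651906, - strand): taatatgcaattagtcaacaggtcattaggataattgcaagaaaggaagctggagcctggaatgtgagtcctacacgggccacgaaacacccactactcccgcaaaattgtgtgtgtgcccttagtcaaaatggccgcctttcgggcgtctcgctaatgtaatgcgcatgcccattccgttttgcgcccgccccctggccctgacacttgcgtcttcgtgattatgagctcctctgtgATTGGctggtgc
Cenpa (chr5:30666636-30666885, + strand): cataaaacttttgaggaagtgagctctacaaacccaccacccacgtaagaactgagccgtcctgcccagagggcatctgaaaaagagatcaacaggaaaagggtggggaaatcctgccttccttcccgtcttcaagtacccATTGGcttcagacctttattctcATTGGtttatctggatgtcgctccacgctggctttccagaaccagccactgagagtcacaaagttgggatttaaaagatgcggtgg
Ube2c (chr2:164769679-164769928, + strand): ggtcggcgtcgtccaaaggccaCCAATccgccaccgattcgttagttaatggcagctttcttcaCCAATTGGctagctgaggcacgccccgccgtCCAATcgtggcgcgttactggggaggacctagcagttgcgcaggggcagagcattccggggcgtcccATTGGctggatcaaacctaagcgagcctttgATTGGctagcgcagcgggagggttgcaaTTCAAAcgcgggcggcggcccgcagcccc

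The promoters of 5 further members, chosen after their values were seen because the CHR lies before the start site and the members rose, are given over the last 120 bases before it. In Cdk1, Cdc20, Kif11 and Espl1 a CHR stood within 50 bases of the start, and in Mki67 a pair stood farther upstream.
Cdk1 (chr10:69352913-69353032, - strand): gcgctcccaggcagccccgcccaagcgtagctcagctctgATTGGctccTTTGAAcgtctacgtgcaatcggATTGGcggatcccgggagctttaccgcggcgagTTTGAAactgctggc
Cdc20 (chr4:118437344-118437463, - strand): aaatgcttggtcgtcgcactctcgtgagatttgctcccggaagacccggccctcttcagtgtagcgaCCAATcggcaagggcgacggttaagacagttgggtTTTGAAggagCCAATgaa
Kif11 (chr19:37376262-37376381, + strand): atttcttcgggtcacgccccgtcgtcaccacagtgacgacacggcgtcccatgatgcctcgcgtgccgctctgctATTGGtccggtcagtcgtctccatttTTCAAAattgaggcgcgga
Espl1 (chr15:102296173-102296292, + strand): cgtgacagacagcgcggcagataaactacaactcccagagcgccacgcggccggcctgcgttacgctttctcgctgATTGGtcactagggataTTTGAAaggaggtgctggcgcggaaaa
Mki67 (chr7:135716380-135716499, - strand): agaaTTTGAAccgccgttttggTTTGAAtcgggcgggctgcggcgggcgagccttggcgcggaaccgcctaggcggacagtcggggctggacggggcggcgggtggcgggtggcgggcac

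**Figure D1:**
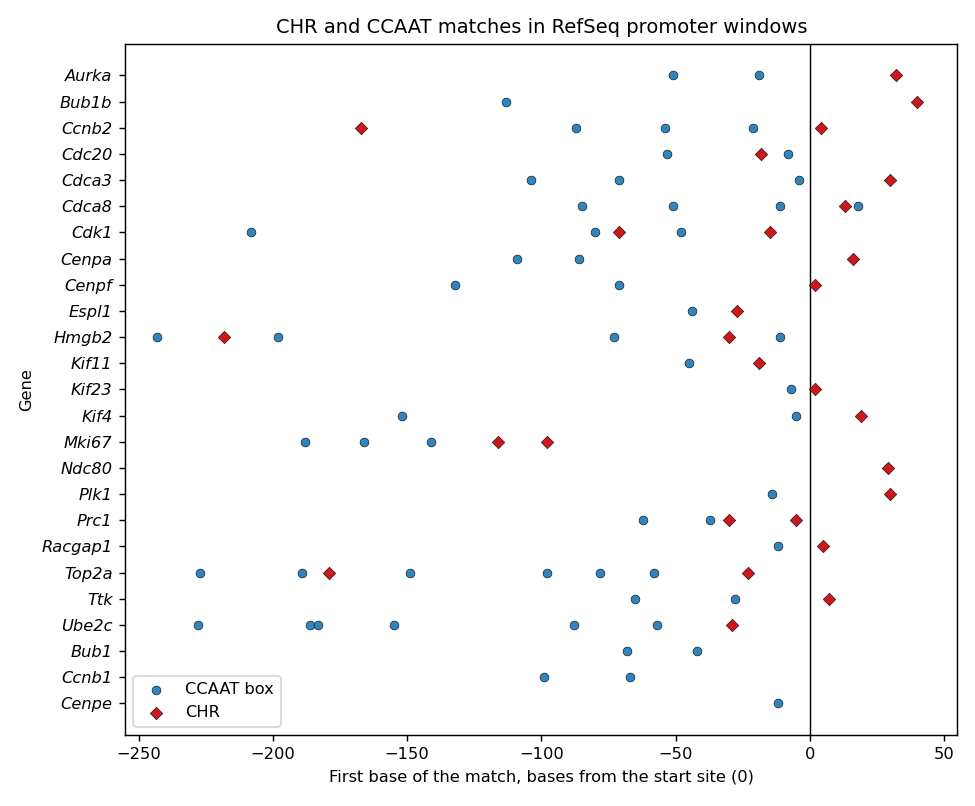
Position of CHR (red diamonds) and CCAAT (blue circles) matches on either strand in the promoter windows of the 25 members with at least 1 match; the x axis gives the first base of each match in bases from the start site, which is 0. Of the 28 CHR matches, 22 began within 50 bases of the start (78.6%), against 25.3% of the CHR matches in all windows. Matches are counted per window, so the CHR site shared by the overlapping windows of Prc1 is counted in both.

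Between the 22 members with a CHR in the window and the 6 with a window but none, no test was made. The median log2 fold change of KO over WT was 1.47 in the former and 1.53 in the latter, which were Birc5, Bub1, Ccnb1, Cenpe, Nuf2 and Nusap1. No window was at hand for Aurkb, Ccna2, Incenp, Kif20a, Stmn1 and Tpx2.

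The libraries held 16418910 to 31155303 counts. Tcf7, the targeted gene, was read first: it was at 811 to 947 CPM (counts scaled to a common library size by the TMM method) in WT, 268 in KO 1 and 452 in KO 2, so transcript was lower in both KO libraries but still counted there. NK cell markers, such as Klrb1c (the NK1.1 gene) and Ncr1 (the NKp46 gene), were present in all libraries, with 12 of 12 listed genes tested and a summed level of 15540.0 to 16309 CPM in WT, 15174 in KO 1 and 13289.7 in KO 2. Of the 12, 3 fell, against 5.58% of all genes (DESeq2 called 6 lower and 1 higher): Eomes, a transcription factor gene of NK cells (log2 fold change -2.11), Tyrobp (-0.67) and Klrb1c (-0.48). The 2 KO libraries differed from each other, as did the WT libraries, by more than counting noise (chi-square per degree of freedom 53.7 between the former and 8.86 to 62.2 between the latter). Markers of other cells also differed between libraries, and their values are given after the members. Nothing in the labels marks a batch.

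Mitotic genes were higher in the KO libraries. Of the 34 members, 27 rose at an adjusted p under 0.05 (edgeR), against 8.13% of all genes tested that rose. No member fell, against 5.58% of all genes, and none had an unadjusted p under 0.05 in that direction or was called lower by DESeq2. All 34 fold changes were above 0, where 51.7% of all genes were. The median log2 fold change was 1.47, or 2.78-fold, beside 0.02 over all genes. Fold changes lay between 0.01 for Racgap1 and 1.98 for Ttk on the log2 scale, with quartiles of 1.24 and 1.60. Of the 27, 25 rose at least 2-fold, against 5.87% of all genes, and none rose 4-fold.

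The level of the whole set can be followed library by library. The summed level of the 34 genes was 711, 777, 859 and 1015 CPM across WT 1 to WT 4, 2698 CPM in KO 1 and 1526 CPM in KO 2. Both KO libraries thus lay above all 4 WT libraries, KO 1 by far the higher: 3.21 times the WT mean in KO 1 and 1.81 times in KO 2. The WT mean was 841 ± 131 CPM (SD, n = 4), the KO mean 2112 ± 829 CPM (SD, n = 2), and their ratio 2.51. As a share of all counts, the members took 0.0694% to 0.0988% in WT, 0.284% in KO 1 and 0.157% in KO 2.

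**Figure D2:**
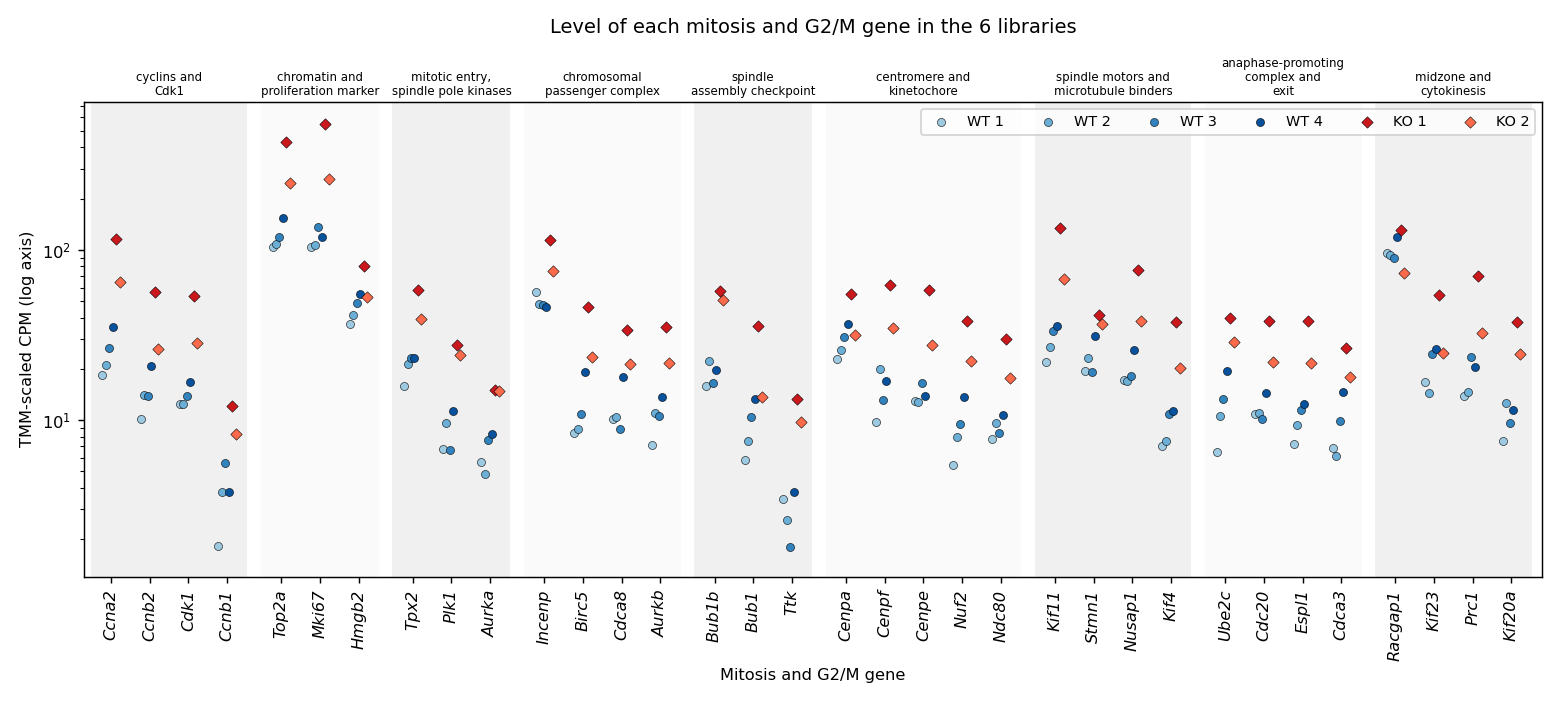
TMM-scaled CPM (log axis) of each of the 34 genes, grouped by role, with 1 point for each library: 4 WT (blue circles) and 2 KO (red diamonds). KO 1 was the highest library for all 34 genes, and for 30 of them both KO libraries lay above every WT library.

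KO 1 held the highest level of all 34 members, and KO 2 stood above every WT library for 30. Over all genes tested, both KO libraries lay above every WT library for 20.5%. The 4 members where KO 2 did not were Hmgb2, Cenpa, Kif23 and Racgap1. The level in KO 1 was 1.01 to 2.62 times that in KO 2, with a median of 1.73, and was higher in KO 1 for all 34, where 47.6% of all genes were higher in KO 1. Results therefore rest unequally on the 2 libraries. Without KO 1, with KO 2 as the only KO library and assumed to vary like the WT libraries, 4 members stayed called, against 4.58% of all genes, and 33 of 34 fold changes were still above 0, with a median of 0.89. Without KO 2 the count was 26, against 3.9% of all genes, with a median of 1.99. Leaving out WT 1 or WT 3 brought it to 17 or 14, against 4.9% and 4.96% of all genes, while the median was 1.26 or 1.46.

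**Figure D3:**
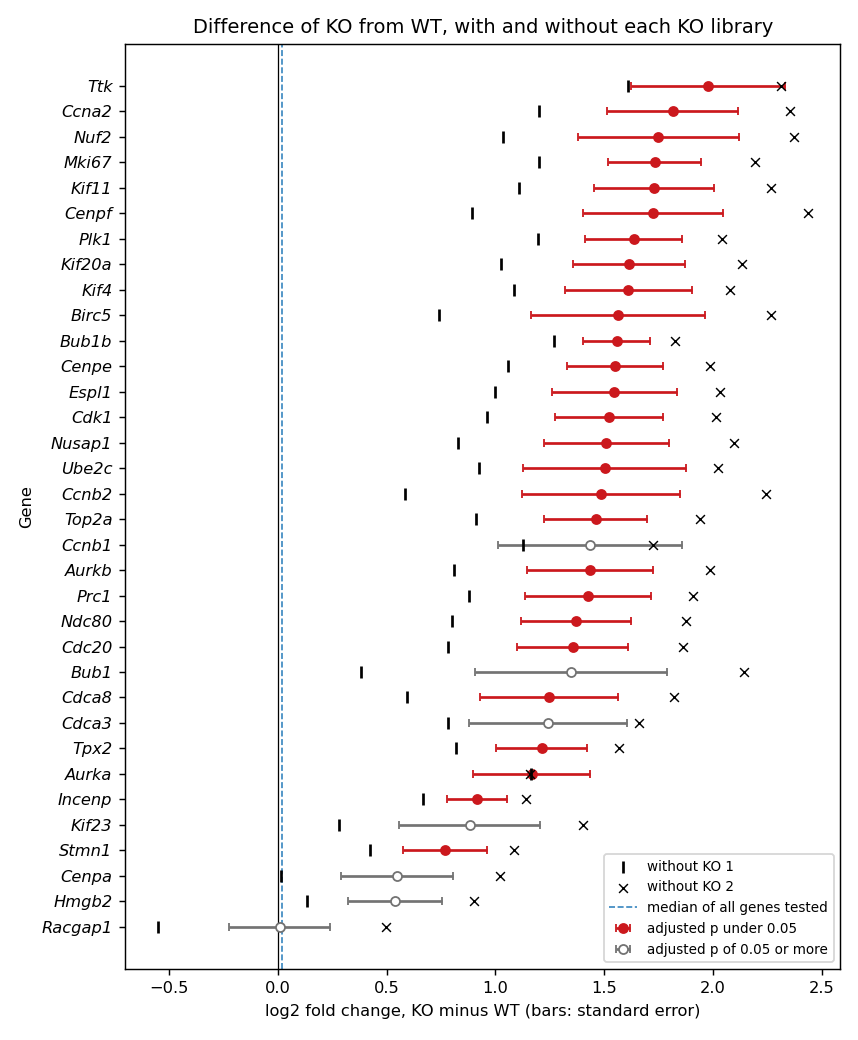
Log2 fold change of KO over WT for each gene (circles, with the standard error), filled red where the adjusted p was under 0.05, with the value without KO 1 (vertical bars) and without KO 2 (crosses). Values without KO 1 lie to the left of those without KO 2 for all genes but Aurka, where the 2 nearly coincide.

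Mki67, Plk1, Bub1b and Cenpe were called in the fit of all libraries and in each of the 16 alternatives. Mki67 encodes Ki-67, a protein that coats mitotic chromosomes and is a standard marker of proliferation. Plk1 encodes a kinase of mitotic entry, Bub1b the checkpoint protein BubR1 and Cenpe a kinetochore motor.

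The cyclin genes and Cdk1 drive entry into mitosis. Ccna2, the cyclin A2 gene (chromosome 3, 36564865 to 36573038), was at 18.5, 21.0, 26.5 and 35.2 CPM across WT 1 to WT 4, 115 CPM in KO 1 and 64.8 CPM in KO 2. Both KO libraries were far above the WT range, and the gene rose (log2 fold change 1.81, SE 0.30, adjusted p = 0.00876), although not without KO 1 (adjusted p = 0.0799). Cdk1, the kinase itself, rose from 13.9 ± 2.00 CPM (SD, n = 4) to 40.9 ± 17.5 CPM (SD, n = 2) (log2 fold change 1.52, SE 0.25, adjusted p = 0.00811). Ccnb2, a B-type cyclin gene, rose with a log2 fold change of 1.49 (adjusted p = 0.0362), 0.58 without KO 1 and 2.24 without KO 2. Ccnb1, the main B-type cyclin gene, was at 1.82, 3.79, 5.58 and 3.79 CPM in WT 1 to WT 4, and 12.1 and 8.32 CPM in KO 1 and KO 2. The groups did not overlap, but the difference did not pass (log2 fold change 1.44, SE 0.42, adjusted p = 0.0639). Ccnb1 has 3 processed pseudogenes that each match 51.7% to 52.0% of its transcript at 97.3% to 99.2% identity, so its counts are uncertain.

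Of 3 chromatin and proliferation marker genes, 2 rose. Mki67 (chromosome 7, 135689784 to 135716450) was at 103, 107, 135 and 119 CPM across WT 1 to WT 4, 548 CPM in KO 1 and 262 CPM in KO 2. The KO libraries were both above the WT range, KO 1 more than 2-fold above KO 2, and the gene rose (log2 fold change 1.73, SE 0.22, adjusted p = 0.00292). Top2a, the topoisomerase that untangles chromosomes before they part, rose from 121 ± 22.9 CPM (SD, n = 4) to 338 ± 128 CPM (SD, n = 2), or by 1.46 on the log2 scale (adjusted p = 0.00806). It was not called without KO 1 (adjusted p = 0.0571). Hmgb2, a chromatin-bending protein gene, was at 36.4, 41.4, 48.9 and 55.1 CPM in WT 1 to WT 4, and 80.0 and 53.1 CPM in KO 1 and KO 2. KO 2 lay inside the WT range, and the difference did not pass (log2 fold change 0.54, SE 0.21, adjusted p = 0.143).

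Genes of mitotic entry and the spindle pole, of which Plk1 and Aurka encode kinases, rose in all 3 cases. For Plk1 (chromosome 7, 122159435 to 122169884) the level was 6.72, 9.59, 6.66 and 11.3 CPM across WT 1 to WT 4, 27.6 CPM in KO 1 and 24.1 CPM in KO 2. The 2 KO libraries were close to each other and at least 2-fold above the highest WT library, and the gene rose by 1.64 on the log2 scale (adjusted p = 0.00418, SE 0.22). Aurka, the Aurora A kinase gene of the spindle poles, had 5.71, 4.85, 7.68 and 8.32 CPM in WT 1 to WT 4, and 15.0 and 14.8 CPM in KO 1 and KO 2. It is the member whose KO libraries lay closest together, and it rose by 1.17 on the log2 scale (adjusted p = 0.0295, SE 0.27), but its call was lost without KO 1 or KO 2 (adjusted p 0.133 and 0.126), with log2 fold changes of 1.16 in both. Tpx2, which encodes the activator of Aurora A on microtubules, rose by 1.21 on the log2 scale (adjusted p = 0.0105, and 0.103 without KO 1).

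All 4 genes of the chromosomal passenger complex, which corrects wrong attachments at the centromere and then moves to the midzone, rose. Birc5, the survivin gene (chromosome 11, 117849237 to 117855743), was at 8.38, 8.87, 10.9 and 19.2 CPM across WT 1 to WT 4, 46.4 CPM in KO 1 and 23.4 CPM in KO 2. Among the WT libraries WT 4 was the highest, near KO 2, and the difference was called with the least margin of the 27 (log2 fold change 1.56, SE 0.40, adjusted p = 0.0415). Incenp, the scaffold of the complex (chromosome 19, 9872295 to 9899489), had 56.3, 48.2, 47.4 and 46.3 CPM in WT 1 to WT 4, and 115 and 75.5 CPM in KO 1 and KO 2. Its WT libraries lay close together and both KO libraries were above them, so that a smaller difference was called (log2 fold change 0.92, SE 0.14, adjusted p = 0.00622). Aurkb, the Aurora B kinase gene, and Cdca8, the borealin gene, rose by 1.43 and 1.25 on the log2 scale (adjusted p = 0.0189 and 0.0405). Without KO 1 none of the 4 was called, with adjusted p of 0.0550 to 0.366.

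The spindle assembly checkpoint was represented by 3 genes. Ttk, which encodes the checkpoint kinase MPS1 (chromosome 9, 83834651 to 83872390), had the largest change of the set, at 3.44, 2.60, 1.80 and 3.79 CPM across WT 1 to WT 4, 13.2 CPM in KO 1 and 9.80 CPM in KO 2. Its lowest count was 30 reads, in WT 3, the fewest of any member in any library. The groups were well apart and the gene rose (log2 fold change 1.98, SE 0.35, adjusted p = 0.0117), although not without KO 1 (adjusted p = 0.113). Bub1b (chromosome 2, 118598202 to 118641592), chosen for its values, had 15.9, 22.3, 16.5 and 19.6 CPM in WT 1 to WT 4, and 57.5 and 50.7 CPM in KO 1 and KO 2, and the smallest adjusted p of the set (log2 fold change 1.56, SE 0.16, adjusted p = 0.00125). Bub1, the related kinase gene, was at 5.79, 7.55, 10.4 and 13.3 CPM in WT 1 to WT 4, and 35.6 and 13.6 CPM in KO 1 and KO 2. KO 2 was barely above WT 4, and the difference did not pass (log2 fold change 1.35, SE 0.44, adjusted p = 0.0869). On the log2 scale it differed by 0.38 without KO 1, against 2.14 without KO 2, where it was called (adjusted p = 0.0335).

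Of 5 centromere and kinetochore genes, 4 rose. Nuf2, a subunit of the NDC80 complex that grips microtubules (chromosome 1, 169497934 to 169531464), was at 5.42, 7.91, 9.42 and 13.7 CPM across WT 1 to WT 4, 38.3 CPM in KO 1 and 22.2 CPM in KO 2. WT libraries spread over more than 2-fold, with both KO libraries above them (log2 fold change 1.75, SE 0.37, adjusted p = 0.0222, and adjusted p = 0.206 without KO 1). Its partner Ndc80 rose by 1.37 on the log2 scale (adjusted p = 0.0130, 0.104 without KO 1). The motor gene Cenpe and the large kinetochore protein gene Cenpf rose by 1.55 and 1.73 (adjusted p = 0.00508 and 0.0138), and the latter was not called without KO 1 (0.0797). Cenpa, the centromeric histone H3 variant (chromosome 5, 30666877 to 30674837), behaved apart from these, at 22.9, 25.9, 30.8 and 36.5 CPM in WT 1 to WT 4, and 54.7 and 31.6 CPM in KO 1 and KO 2. KO 2 lay inside the WT range, and the difference did not pass in the fit of all libraries (log2 fold change 0.55, SE 0.26, adjusted p = 0.206) or in any of the 16 alternatives.

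Spindle motors and microtubule binders rose in all 4 cases. Kif11 encodes Eg5, the motor that pushes the spindle poles apart (chromosome 19, 37376382 to 37421863), and was at 22.1, 26.9, 33.5 and 35.5 CPM across WT 1 to WT 4, 134 CPM in KO 1 and 67.5 CPM in KO 2. KO 1 stood at about 2-fold KO 2, and both were above the WT range (log2 fold change 1.73, SE 0.28, adjusted p = 0.00773, and adjusted p = 0.0605 without KO 1). Kif4, a chromosome-bound motor gene, and Nusap1, a spindle-bundling protein gene, rose by 1.61 and 1.51 on the log2 scale (adjusted p = 0.0125 and 0.0149), and neither was called without KO 1. Stmn1, the stathmin gene, whose product destabilises microtubules and is also found outside mitosis, had 19.4, 23.1, 19.3 and 31.2 CPM in WT 1 to WT 4, and 41.1 and 36.6 CPM in KO 1 and KO 2. Both KO libraries exceeded the WT range by a smaller margin (log2 fold change 0.77, SE 0.19, adjusted p = 0.0386, and adjusted p = 0.308 without KO 1).

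Genes that act through the anaphase-promoting complex and at mitotic exit followed. Espl1, which encodes separase, the protease that cuts cohesin (chromosome 15, 102296254 to 102324357), was at 7.21, 9.33, 11.5 and 12.4 CPM across WT 1 to WT 4, 38.1 CPM in KO 1 and 21.8 CPM in KO 2. It rose with the groups apart (log2 fold change 1.55, SE 0.29, adjusted p = 0.0137). Cdc20, the activator of the complex, and Ube2c, its ubiquitin-conjugating enzyme, rose by 1.36 and 1.50 on the log2 scale (adjusted p = 0.0146 and 0.0382). Without KO 1 none of these 3 was called (adjusted p 0.118 to 0.302). Cdca3, a trigger of mitotic entry, was at 6.88, 6.16, 9.90 and 14.6 CPM in WT 1 to WT 4, and 26.5 and 17.9 CPM in KO 1 and KO 2. Both KO libraries were above WT 4, the highest WT library, and the difference narrowly missed the threshold (log2 fold change 1.24, SE 0.36, adjusted p = 0.0627).

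Genes of the spindle midzone and of cytokinesis were the most divided group, with 2 of 4 called. Kif20a encodes a motor of the midzone and was at 7.57, 12.6, 9.60 and 11.4 CPM across WT 1 to WT 4, 37.7 CPM in KO 1 and 24.5 CPM in KO 2. It rose with the groups apart (log2 fold change 1.61, SE 0.26, adjusted p = 0.00760, and 0.0531 without KO 1), as did Prc1, the microtubule cross-linker gene (log2 fold change 1.43, adjusted p = 0.0189, and 0.185 without KO 1). Kif23, the motor subunit of centralspindlin, had 16.7, 14.5, 24.4 and 26.2 CPM in WT 1 to WT 4, and 54.4 and 24.8 CPM in KO 1 and KO 2 (log2 fold change 0.88, SE 0.32, adjusted p = 0.118). Racgap1, the other subunit of centralspindlin (chromosome 15, 99620496 to 99651656), was the exception of the set, at 95.1, 92.9, 89.8 and 119 CPM in WT 1 to WT 4, and 131 and 72.6 CPM in KO 1 and KO 2. KO 1 was above the WT range and KO 2 below it, so that the groups were not separated (log2 fold change 0.01, SE 0.23, adjusted p = 0.985). On the log2 scale KO differed from WT by -0.55 when KO 1 was left out and by 0.50 when KO 2 was, neither of them called.

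Levels per length of gene put the members in a different order from their changes. In WT, Racgap1 had the highest mean level per kilobase, 32.4 CPM per kilobase, followed by Top2a at 23.3, Stmn1 at 22.0, Cenpa at 21.7, Hmgb2 at 16.9 and Incenp at 15.4. Of these 6, all but Top2a were also among the 6 members with the smallest fold change, with Kif23 as the sixth. The lowest WT levels per kilobase were those of Ttk at 0.934 and Cenpf at 1.35 CPM per kilobase.

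The kit does not mark strand, so reads of overlapping genes on the opposite strand cannot be told apart. Exons of Cdc23 cover 29.3% of the exon bases of Kif20a in GENCODE vM21, those of Tnnc2 22.8% of Ube2c, Pdzd11 15.1% of Kif4, Exosc9 12.5% of Ccna2 and Rccd1 11.1% of Prc1. Cdc23 was at 41.5 to 56.8 CPM in WT, 59.9 in KO 1 and 47.8 in KO 2 (log2 fold change 0.17, adjusted p = 0.523). Beside Ccnb1, stretches of pseudogenes match Hmgb2 over at most 24.2% and Stmn1 over 42.5% of the transcript, and their counts are uncertain to that extent.

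Within WT the members also differed between libraries. WT 4 held the highest WT level of 25 members and WT 1 the lowest of 22, and the summed level in WT 4 was 1.43 times that in WT 1. The median over members of the log2 ratio to the WT mean was -0.33, -0.13, 0.02 and 0.30 across WT 1 to WT 4, 1.75 for KO 1 and 0.98 for KO 2. KO 2 was nearer to WT 4 than KO 1 was.

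No member was called for a difference between the sexes. No gene was called for the labelled sex by edgeR, with 866 of 13652 at an unadjusted p under 0.05, none of them a member. DESeq2 called 28 genes but no member. With no gene called at all, the edgeR test cannot show that the members lack a sex difference. Whether transcripts bear out the labelled sexes is not reported here. The median log2 difference of the members, female minus male, was -0.07. The difference between the KO effect in females and that in males, which rests on 1 KO library of each sex, was called for no gene by edgeR, with 1368 genes at an unadjusted p under 0.05. Of the members, 17 had such a p, with a lowest adjusted p of 0.344 and a median difference of -1.04 on the log2 scale, the KO effect being smaller in females, and DESeq2 called Mki67 and Racgap1. Sex and the individual KO library cannot be told apart.

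Other mitotic genes were read from lists of genes that are not in the set. Of 27 further spindle, motor and cytokinesis genes, 19 rose and none fell, with a median log2 fold change of 1.30. The spindle-pole gene Aspm, at 7.45, 12.5, 7.44 and 9.08 CPM in WT 1 to WT 4, and 50.3 and 27.7 CPM in KO 1 and KO 2, rose (log2 fold change 2.10, SE 0.30, adjusted p = 0.00543), and the motor genes Kif15 and Kif2c rose by 1.77 and 1.66. Of the 27, 3 were called without KO 1 and 19 without KO 2. Of 34 further kinetochore and centromere genes, 10 rose (7 without KO 2), with a median of 0.88, among them the checkpoint gene Kntc1 (1.88), the cohesin protector gene Sgo1 (1.83) and Cenpn (1.71). No gene of this list was called without KO 1, although their median was 0.54. Over all tested genes 8.13% rose.

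Complexes that are also used outside mitosis were divided. Of 20 condensin and cohesin genes 8 rose and none fell, where 8.13% of all genes rose and 5.58% fell, and DESeq2 called 1 lower. Their median was 0.17, or 0.24 without KO 1, and 13 of the 20 fold changes were above 0. The largest changes were those of Ncapg (1.89) and Ncapg2 (1.46), which encode condensin subunits, and of Esco2 (1.71), a cohesin acetyltransferase gene. Of 17 subunits and regulators of the anaphase-promoting complex, edgeR called none, 2 had an unadjusted p under 0.05, and DESeq2 called 1. Their median was 0.00, with Anapc1 at 208 ± 16.1 CPM (SD, n = 4) in WT and 208 ± 2.14 CPM (SD, n = 2) in KO and Anapc5 at 164 ± 11.8 CPM (SD, n = 4) in WT and 184 ± 16.7 CPM (SD, n = 2) in KO. In the edgeR fit of all libraries none of these 17 subunits and regulators was thus called, while Cdc20 and Ube2c, which work with the complex, rose.

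Among 23 transcriptional regulators of mitotic genes 7 rose, where 8.13% of all genes rose. Foxm1, an activator of G2 and M genes, rose from 11.0 ± 3.31 CPM (SD, n = 4) to 32.3 ± 13.5 CPM (SD, n = 2) (log2 fold change 1.54, SE 0.33, adjusted p = 0.0218). E2f7 and E2f8, which encode repressors that follow E2F activity, rose by 1.69 and 1.38. None of the 23 was called without KO 1, and 5 were without KO 2. Of 18 brakes of the cell cycle, 3 fell and 1 rose, with a median of -0.01, where 5.58% of all genes fell and 8.13% rose. Without KO 1 the median of these 18 was -0.02, and without KO 2 it was -0.06. The antiproliferative genes Btg1 and Tob1 fell from 1587 ± 228 CPM (SD, n = 4) to 883 ± 52.4 CPM (SD, n = 2) and from 66.1 ± 33.9 CPM (SD, n = 4) to 23.3 ± 2.15 CPM (SD, n = 2) (log2 fold changes -0.84 and -1.48, adjusted p = 0.00447 and 0.0393). Tob1 was itself uneven in WT, with 116 CPM in WT 4 and 42.7 to 55.8 in the others. The gene Cdkn2c, which encodes an inhibitor of the D-type cyclin kinases, was the 1 that rose, by 0.85 (adjusted p = 0.0392), a share below that of all genes.

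DNA replication genes rose in part, with a smaller median than the mitotic set. Of 30 such genes, 14 rose and none fell, where 8.13% of all genes rose and 5.58% fell. The median log2 fold change was 0.62, and Rrm2, Tk1 and Ccne2 rose most, by 1.64, 1.64 and 1.41. Without KO 1 the median was 0.47, and without KO 2 it was 0.84. Their summed level was 1495, 1458, 1530.1 and 1780.2 CPM in WT 1 to WT 4, 2310.5 in KO 1 and 2086 in KO 2, so both KO libraries were above the WT range and closer to each other than in the mitotic set. The mitotic sum divided by the replication sum, a ratio that no scaling of the library can change, was 0.476, 0.533, 0.562 and 0.570 in WT 1 to WT 4, 1.17 in KO 1 and 0.731 in KO 2. The KO libraries lay above the WT libraries in this ratio too, and it was not tested, since the members were chosen with results known.

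**Figure D4:**
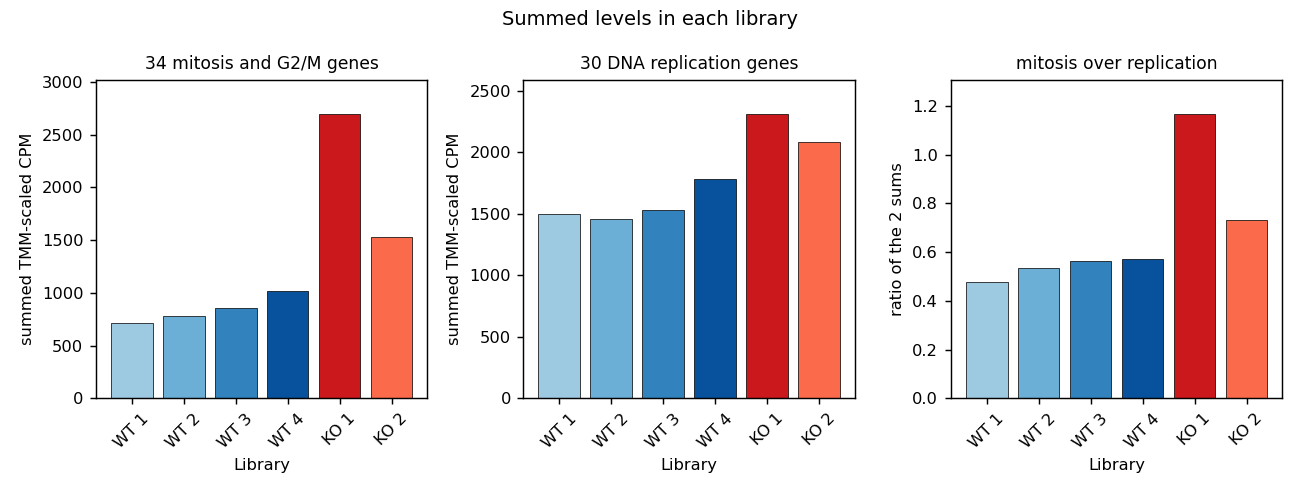
Summed TMM-scaled CPM of the 34 mitosis and G2/M genes (left) and of 30 DNA replication genes (middle), and the ratio of the 2 sums (right), with 1 bar for each library. The mitotic sum was 2698 in KO 1 and 1526 in KO 2 against at most 1015 in WT, and the ratio was 1.17 in KO 1 and 0.731 in KO 2 against at most 0.570 in WT.

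Markers of other cell types that a thymic sort could hold differed between the same libraries. Of 10 B cell markers 7 rose, where 8.13% of all genes rose. Their summed level was 377 to 426 CPM in WT, 572 in KO 1 and 421 in KO 2, most of it Ighm. Ms4a1, the CD20 gene, was at 0 to 1.57 CPM in WT, 44.2 in KO 1 and 9.73 in KO 2. Pax5 was at 0 to 0.363 CPM in WT, 5.68 in KO 1 and 1.56 in KO 2. Of 10 immature thymocyte markers 4 rose, among them Ptcra (log2 fold change 3.67) and Cd24a (2.54), and their sum was 286 to 398 CPM in WT, 342 in KO 1 and 972 in KO 2. Rag1, a recombinase gene of developing lymphocytes that was not called and is named for its values, was at 4.25 to 62.4 CPM in WT, 20.2 in KO 1 and 322 in KO 2. The sum in KO 1 lay inside the WT range, and that in KO 2 was the highest.

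Of 12 alpha-beta T cell markers 3 rose and 1 fell, where 8.13% of all genes rose and 5.58% fell. Their sums were 1210.1 to 1593 CPM in WT, 1619 in KO 1 and 1300.3 in KO 2. The sum in KO 2 lay inside the WT range. The coreceptor genes Cd4 and Cd8a and the T cell gene Themis rose, and Cd28, a costimulatory receptor gene, fell (log2 fold changes 3.96, 3.75, 2.22 and -1.42). Cd8a, whose protein the sort selected against, was at 1.78 to 20.1 CPM in WT, 79.5 in KO 1 and 64.4 in KO 2. DESeq2 called 5 of the 12 higher and 3 lower. Of 9 gamma-delta T cell markers 5 rose, most of all Blk (5.45), Sox13 (3.64) and Tcrg-C1 (3.46), with sums of 264 to 414 CPM in WT, 786 in KO 1 and 588 in KO 2. For 12 myeloid markers, the sums were 326 to 503 CPM in WT, 527 in KO 1 and 538 in KO 2. Of the 12, 1 rose, a share near that of all genes. For 10 stroma markers, 4 of which rose among 5 tested, the sums were 109 to 119.6 CPM in WT, 270.4 in KO 1 and 451 in KO 2. The 6 erythroid markers in the table, of which edgeR and DESeq2 called none of 4 tested and none had an unadjusted p under 0.05, summed to 19.2 to 55.8 CPM in WT, 0.232 in KO 1 and 29.2 in KO 2. Among the stroma markers, Foxn1, Psmb11 and Col3a1 were at 0 in all 4 WT libraries but not in both KO libraries. Pdgfra and Klf1 were at 0 in both KO libraries. Without KO 1 the median log2 fold change was 2.57 for the B cell, 2.64 for the immature thymocyte and 0.43 for the alpha-beta T cell markers. It was 1.56 for the gamma-delta T cell, 1.90 for the myeloid and 5.34 for the stroma markers. Without KO 2 the medians, in that order, were 5.41, 1.46, 2.09, 2.72, 2.98 and 3.19. The erythroid median was -0.78 without KO 1 and -10.5 without KO 2, where only KO 1, at a sum of 0.232 CPM, is left. The genes that pass the filter can differ between these fits. The part of these other cell types in the mitotic result was not tested.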

How the data were processed

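RNA-seq of 6 sorted libraries (4 WT, 2 Tcf7 KO) was analysed. The authors deposited whole-number counts, not normalized, by Entrez gene, and the 6 single-sample files held the same counts as the table. Per the submitters' processing notes, featureCounts and mm10 were used. The aligner is not given in the sources used here. Per the labels' protocols, a SMART-Seq v4 kit was used, which amplifies cDNA, and a NextSeq run in paired-end mode. Counts carry no molecular identifiers, so floors cover counting error only: 3 counts are 0.0963 to 0.183 CPM. The deposited gene lengths (unit: other, in bases, as the authors gave them) served only for levels per kilobase. Each library came from its own mouse, per the labels of the series.

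Symbols came from a RefSeq table of GRCm38.p6 (25275 of 26332 IDs matched, and 0.623% of counts had no symbol). The comparison of KO with WT used the quasi-likelihood test of edgeR 4.0.16 under R 4.3.3, after filterByExpr and TMM scaling, with sex as an additive term, and Benjamini-Hochberg adjustment over 13652 genes, called at an adjusted p under 0.05. All p-values for genes come from this fit (3 residual degrees of freedom) unless stated. Per-library ratios used a pseudocount of 0.5 CPM. On simulated counts of this comparison (13296 genes), the test found 63% of genes changed 2-fold and 91% of those changed 4-fold. Of its 164 calls, 10 (6.10%) were wrong. The simulation changed only a small part of the genes, drew genes independently, held no sex effect and gave KO and WT the same spread. Its shares need not hold for the real libraries, where many more genes were called.

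Members, lists, tests and alternatives were chosen with earlier results of these data known. Values in every library are given for the largest and smallest change in each of 9 role groups. Of each pathway list, the 3 called genes with the largest change are named, or, with fewer than 2 called, up to 2 by level. Marker genes are named mostly from the called ones with large changes, chosen after their values were seen, and some are not reported here. The lists of other genes served the same fit. Alternatives were RLE and library-size scaling, 2 other filters, no sex term, the replicate block, DESeq2 1.42.0, limma 3.58.1 voom, the robust option, and leaving out libraries. The counts and medians of other lists without KO 1 or KO 2 were added after seeing the data.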

Additional observations from a re-analysis of the deposited data

Results flagged for a closer look

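Among the 34 members, 1 had a WT library set apart from the other 3. Nusap1 was at 25.8 CPM in WT 4, against 16.9 to 18.1 CPM in the other WT libraries, a gap of 0.861 of the range of the 4, past the critical value of Dixon's test at 95%. Chance marks about 1 in 20 such groups. WT 4 was also the WT library with the highest summed level of the set.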

How the results depend on the processing

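The count of 27 members called higher held within 1.5 times under the 9 alternatives that kept all libraries (25 to 31) and without WT 3 and WT 4 together (31), and no member was called lower in any of the 16 alternatives. The replicate block, among the 9, gives WT 3 and WT 4 a block each, so its KO difference rests on WT 1, WT 2, KO 1 and KO 2. It is thus nearly the same comparison as the fit without WT 3 and WT 4, not a separate check. Leaving out 1 library at a time gave 4 to 31 members, 934 to 1908 called genes of all (1872 with all libraries), a median log2 fold change of the members of 0.89 to 1.99, and a ratio of summed levels of 1.81 to 3.21. The lowest count of members and the lowest median were those without KO 1. Of the member values in alternatives, 459 kept direction and call, 57 lost the call, 24 gained it and 4 changed sign. The 4 were all of Racgap1: -0.040 by limma voom, -0.07 without WT 1, -0.10 without WT 3 and -0.55 without KO 1, while leaving out single libraries gave -0.55 to 0.50. The cause was not tested, but without KO 1 only the lower KO library is left. With library-size scaling the median of all genes moved from 0.02 to 0.10 and that of the members from 1.47 to 1.56, and the calls moved from 1110 higher and 762 lower to 1336 and 523. Calls for the sex term rose from 0 to 15 without an expression filter and to 28 with DESeq2, and those for the interaction from 0 to 91 and 121. The cause was not tested. Without the filter, 1 member, Cenpf, was called for the interaction (log2 -1.54).

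WT and KO share the replicate numbers 1 and 2. The labels tie these numbers to sex but not to a litter or day, and 2 pairs are too few to check pairing. The correlation across genes of the deviations from the group means was 0.13 for WT 1 with KO 1 and -0.05 for WT 2 with KO 2. With the replicate block, 30 members and 1341 genes were called, the median of the members was 1.65 and every member called without it stayed called. The fewest counts of a member in a library were 30, for Ttk, so counting error adds to the spread between mice for the members with the fewest counts.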
